A study of Mus musculus with 48 samples.

Results

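Whole skin of C57BL/6 mice in late anagen was compared among 3 body domains, chin, belly side (ventral) and back (dorsal), by RNA sequencing. The comparison rests on 8 libraries, 2 labelled chin, 3 ventral and 3 dorsal, out of 43 libraries of skin domains and 48 in the whole series. The libraries were chosen by their labels for domain and hair cycle stage, and 16879 of the 46983 genes listed reached 0.5 FPKM in 2 or more of them and were tested. FPKM is the number of sequenced fragments of a gene scaled by the length of its transcripts and by the depth of the library. The labels name no transgene and no treatment, and give neither sex nor age. Since the labels do not say that replicates came from separate animals, p-values measure the spread between these libraries, which may be technical.

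Hair follicles grow in cycles, and in anagen the matrix at the follicle base divides and builds the hair shaft and the inner root sheath around it. The shaft is made of hair keratins, which form filaments, and of keratin-associated proteins, which fill the space between them and link them. Melanocytes in the bulb hand pigment to the shaft, the dermal papilla signals to the matrix, and the fat layer under the skin thickens while the follicle grows down into it. WNT ligands are known as activators of the cycle and BMP ligands as inhibitors, and each pathway has secreted antagonists. Late anagen is the last stage before the follicle regresses in catagen. Skin of different body sites also differs in Hox genes, transcription factors that record position along the body axis.

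The 2 libraries labelled chin late anagen went against their label in the Hox genes. Hoxb6, Hoxb7 and Hoxa7 are the only 3 genes of the table for which all 12 other chin libraries lay below all 29 ventral and dorsal libraries, with at least 0.5 FPKM in each of the latter. Hoxb6 was at 7.13 and 6.16 FPKM in the libraries labelled chin late anagen, at most 1.42 in the other chin libraries and at least 2.66 in the trunk libraries. For Hoxb7 the values were 7.25 and 8.41 FPKM, with at most 0.77 in other chin and at least 3.06 in trunk skin. For Hoxa7 they were 7.16 and 6.6 FPKM, against at most 2.33 and at least 2.88. In all 3 genes both libraries lay within the range of trunk skin and above every other chin library. Conversely, Rhox4a2 was the 1 gene at 2.56 FPKM or more in all other chin libraries and at most 1.8 in trunk skin, and it was at 0.92 and 1.43 FPKM in the libraries labelled chin late anagen. The first ventral catagen library, counted here as trunk, has ear as its tissue location in 1 label, and the same 4 genes were found with the 28 trunk libraries other than it.

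**Figure D1:**
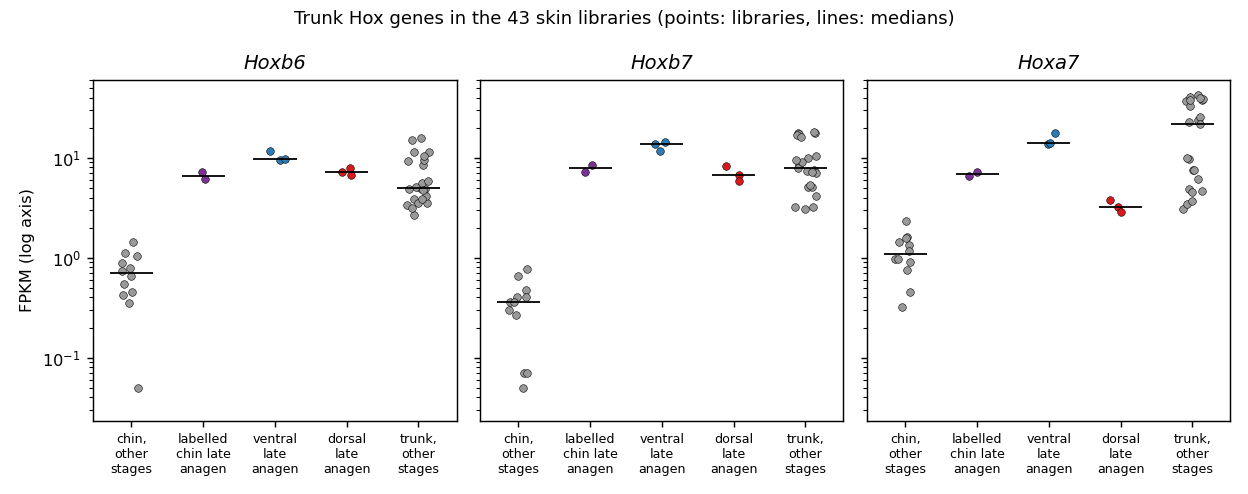
FPKM of Hoxb6, Hoxb7 and Hoxa7 on a log axis, with a point for each of the 43 libraries and a line at the median of each group. Values of 0 are drawn at a small positive level. The 2 libraries labelled chin late anagen lie between 6.16 and 8.41 FPKM, with the trunk libraries and above the chin libraries of the other stages.

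The whole profiles were nearest to dorsal competent telogen skin, and after it and the replicate to a chin library. Over 21257 genes, the root mean square log2 distance from the first library labelled chin was 0.425 to a dorsal competent telogen library and 0.455 to its own replicate. The second was at 0.432 and 0.433 from the 2 dorsal competent telogen libraries, again nearer than the replicate at 0.455. The nearest other chin library to each was chin catagen replicate 3, at 0.563 and 0.567. It was nearer than any trunk library outside dorsal competent telogen. The dorsal competent telogen libraries held 321 and 313 FPKM of the hair protein gene Krtap20-2, and the libraries labelled chin late anagen 329 and 321. That dorsal pair itself stood apart from its stage. Krtap20-2 was at 0 FPKM in chin and 1.02 to 1.66 FPKM in ventral competent telogen libraries. Krt71, a keratin of the follicle, was at 8292 and 8240 FPKM in the dorsal pair and 3676 to 4527 FPKM in those libraries. Which labels are at odds, for site or stage, was not tested. In the distances, by contrast, each ventral and dorsal late anagen library was nearest to a replicate of its own domain. The ranges of sums over gene lists did not tell the body sites apart. Skeletal muscle genes added up to 8006 to 8194 FPKM in the libraries labelled chin late anagen and to 8307 to 8373 FPKM in the dorsal competent telogen libraries, within the range of both the other chin libraries (384 to 27590 FPKM) and the trunk libraries (383 to 9975 FPKM). The macrophage and adipocyte sums of the libraries labelled chin late anagen also lay within both ranges. They were 603 to 628 FPKM and 3868 to 4052 FPKM, beside 620 to 626 FPKM and 4007 to 4013 FPKM in the dorsal competent telogen libraries. Yet no other chin library lay between 259.9 and 819.7 FPKM for macrophage genes. Nor did any lie between 2680 and 6716 FPKM for adipocyte genes or between 4871 and 17350 FPKM for muscle genes. Whether libraries were exchanged was not tested, so the pair is called the libraries labelled chin from here on. The comparison of dorsal with ventral skin comes first, since its differences do not use that pair, although its gene filter and variance do.

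Depth, read from the spacing of low FPKM values, was about 9600000 to 13800000 fragments in ventral, 13500000 to 16600000 in dorsal and 14900000 to 16300000 in the libraries labelled chin. In a transcript of 2 kb, 1 FPKM then stands for 19.2 to 33.2 fragments. Differences are given on the log2(FPKM + 1) scale, which understates the change of genes at low levels, and were tested with limma with Benjamini-Hochberg adjustment over all 16879 genes at a threshold of 0.05. In the F-test over the 3 domains, 7002 genes differed, or 41.5% of those tested. Dorsal skin was higher than ventral skin for 1378 genes (8.16%) and lower for 870 (5.15%), the shares against which the counts of list members are to be read. Ventral skin was higher than the libraries labelled chin for 3856 genes (22.8%) and lower for 1873 (11.1%). For dorsal skin against the libraries labelled chin the counts were 4555 genes higher (27%) and 1756 lower (10.4%). Genes set apart from both other domains in 1 direction were 1215 higher (7.2%) and 3031 lower (18%) in the libraries labelled chin, 395 higher (2.34%) and 372 lower (2.2%) in ventral, and 917 higher (5.43%) and 387 lower (2.29%) in dorsal skin. The balance of higher and lower genes depended on the scaling. After scaling by the median of ratios, 49.7% of the genes called in dorsal against ventral skin were higher, compared to 61.3% as deposited. Against the libraries labelled chin the corresponding shares were 47.4% and 67.3% for ventral skin, and 49.2% and 72.2% for dorsal skin. Rescaling to TPM gave 77.7% and 81.8%, and quantile normalization 58.9% and 60.2%. With the 6 ventral and dorsal libraries alone, 1421 genes were higher and 856 lower in dorsal skin, and among the lists described in the following paragraphs the counts moved by at most 1. Keratin-associated proteins were higher for 12 and lower for 25, melanocyte genes higher for 9 and dermal matrix genes higher for 8.

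Dorsal and ventral late anagen skin differed in the keratin-associated proteins of the hair shaft. Of 56 such genes tested, 24 were lower and 11 higher in dorsal skin, with a median log2 difference of -0.12 beside 0.03 over all genes. The direction followed subfamily. All 8 Krtap4 genes, all 3 Krtap1 genes and all 3 Krtap3 genes were lower in dorsal skin, as were 3 of 4 Krtap6 and 2 of 3 Krtap9 genes. In contrast, 6 of 7 Krtap19 genes and 2 of 5 Krtap5 genes were higher, and none of either was lower. Of the genes with an entry in the RefSeq promoter table, 16 of the 21 on chromosome 11 were lower and none higher, while the 22 on chromosome 16 split into 8 higher and 6 lower. Members of a subfamily are near copies of each other, so that fragments may be shared between them and their values are not independent. With all 43 libraries in the fit, 18 members were lower and 5 higher.

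The largest difference within the family belonged to Krtap20-2, on chromosome 16 from 89205861 to 89206394 (GRCm38, GENCODE vM21, as all positions below). It was at 108, 79.6 and 87.6 FPKM in ventral and 8.49, 8.13 and 6.86 FPKM in dorsal skin, a log2 difference of -3.38 (SE 0.12, adjusted p = 7.24e-06). Ventral skin thus held 11.7 times the mean dorsal level. Krtap4-13, on chromosome 11 from 99809078 to 99809892, was at 455, 502 and 505 FPKM in ventral and 99.3, 87.3 and 117 FPKM in dorsal skin (log2 difference -2.27, SE 0.11, adjusted p = 3.72e-05). Its neighbours Krtap4-9 and Krtap4-8 had log2 differences of -2.17 (SE 0.07) and -1.94 (SE 0.08). Among them Krtap4-8 was the most abundant, at 946, 976 and 985 FPKM in ventral and 255, 234 and 265 FPKM in dorsal skin. Krtap1-4 fell from 236, 246 and 221 FPKM in ventral to 71.8, 77.3 and 72.1 FPKM in dorsal skin (log2 difference -1.66, SE 0.07, adjusted p = 1.9e-05). In each of these genes every dorsal library lay below every ventral one, as the rule for naming some of them required.

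Krtap19-1, on chromosome 16 from 88868917 to 88869411, ran in the opposite direction. It was at 811, 777 and 795 FPKM in ventral and 1598, 1623 and 1639 FPKM in dorsal skin, a log2 difference of 1.03 (SE 0.04, adjusted p = 7.34e-06). Krtap19-4 was at 443, 362 and 347 FPKM in ventral and 740, 703 and 614 FPKM in dorsal skin (log2 difference 0.84, SE 0.11, adjusted p = 0.00398). Krtap5-3 was scarce, at 2.95, 2.85 and 3.42 FPKM in ventral and 12.5, 12.3 and 11.6 FPKM in dorsal skin, and had the largest log2 difference of the higher genes, at 1.69 (SE 0.11, adjusted p = 0.000143). The libraries labelled chin held more of most of these genes than either trunk domain, with summed levels of 132600 to 138500 FPKM against 86050 to 90600 in ventral and 82080 to 83780 in dorsal skin. The Krtap19-1 level in them, 396 and 416 FPKM, was below both.

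The promoters of 3 of these genes are shown because they stand for the family member that differed most, a Krtap4 gene that was lower and a Krtap19 gene that was higher in dorsal skin. The 100 bases before the transcription start were read from RefSeq (GRCm38.p6), 5′ to 3′ on the strand of the gene, for Krtap20-2 from chr16:89205761-89205860 on the plus strand, for Krtap4-13 from chr11:99809897-99809996 on the minus strand and for Krtap19-1 from chr16:88869411-88869510 on the minus strand. Capitals mark TATAAA, the core of a TATA box.
Krtap20-2: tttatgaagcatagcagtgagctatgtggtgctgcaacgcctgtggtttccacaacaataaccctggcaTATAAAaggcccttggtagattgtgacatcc
Krtap4-13: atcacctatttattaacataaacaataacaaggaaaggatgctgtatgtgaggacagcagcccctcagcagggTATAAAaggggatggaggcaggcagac
Krtap19-1: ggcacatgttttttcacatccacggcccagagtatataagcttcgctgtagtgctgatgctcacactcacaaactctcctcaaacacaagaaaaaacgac

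In the Krtap20-2 and Krtap4-13 promoters TATAAA began 31 and 27 bases before the start. The bases shown for Krtap19-1 held no TATAAA, but they held the similar TATATA, left in small letters. It lay farther from the start than TATAAA did in the other promoters shown. Over windows of 250 bases before to 50 after the start, TATAAA on either strand was found in 42 of 51 Krtap promoters (82.4%) and in 13.6% of all 32851 promoters. It stood in 21 of 22 promoters of Krtap genes lower in dorsal skin (95.5%) and in 4 of 10 of those higher (40%). The related TATATA, which can overlap it and was added after the sequences were seen, stood in 9 of 22 (40.9%) and 5 of 10 (50%), beside 5.67% of all promoters. GGGCGG, the core of a GC box, was found in 0 of 51 Krtap promoters and in 35.7% of all. These matches describe letters in a window, and near copies of a gene may share them.

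**Figure D2:**
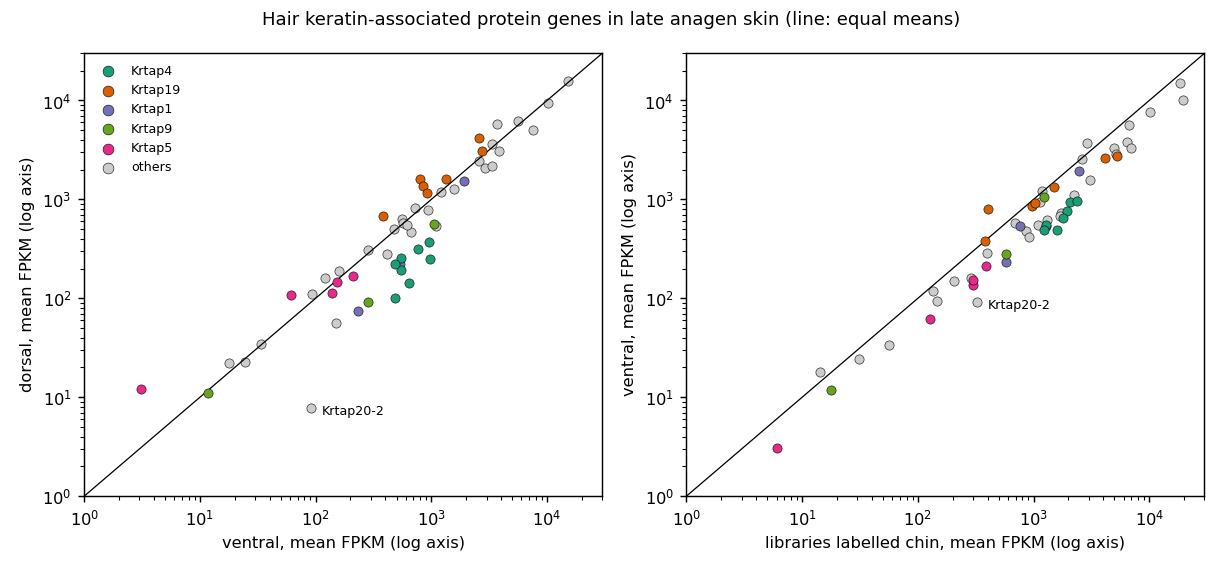
Mean FPKM of each hair keratin-associated protein gene in late anagen skin on log axes, dorsal against ventral on the left and ventral against the libraries labelled chin on the right, with colours for 5 subfamilies and a line of equal means. All 8 Krtap4 genes lie under the line on the left and 6 of 7 Krtap19 genes passed the test above it; on the right most points lie under the line.

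The keratins of the shaft and of the inner root sheath differed less. Of 9 type I hair keratins 2 were higher and 1 lower in dorsal skin, of 5 type II hair keratins 2 were lower, and of 11 inner root sheath and companion layer genes 1 was higher and 3 lower. Krt28, an inner root sheath keratin, was at 1954, 1988 and 1922 FPKM in ventral and 1195, 1161 and 1136 FPKM in dorsal skin, a log2 difference of -0.75 (SE 0.04, adjusted p = 8.82e-05). Krt72 of the same layers was at 1374, 1404 and 1290 FPKM in ventral and 959, 942 and 972 FPKM in dorsal skin (log2 difference -0.50, SE 0.05, adjusted p = 0.00123). Trichohyalin, Tchh, which hardens the inner root sheath, had a log2 difference of -0.50 (SE 0.06, adjusted p = 0.00188). Krt71, the most abundant of these keratins, went the other way, at 8492, 8440 and 8652 FPKM in ventral and 10427, 10123 and 10438 FPKM in dorsal skin (log2 difference 0.28, SE 0.04, adjusted p = 0.00493). The summed level of the list was 25560 to 25660 FPKM in ventral and 24470 to 25300 FPKM in dorsal skin, while single members differed in both directions. Among type I hair keratins Krt33b was 0.26 higher (SE 0.07, adjusted p = 0.0437) and Krt39 -0.37 on the log2 scale (SE 0.05, adjusted p = 0.00327). Krt31, with 1552, 1556 and 1728 FPKM in ventral and 1801, 1678 and 1681 FPKM in dorsal skin, did not pass the test (adjusted p = 0.303). In the fit of all 43 libraries, Krt71, Krt72, Tchh, Krt33b and Krt39 did not pass (adjusted p = 0.208, 0.0504, 0.0733, 0.402 and 0.435).

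Genes of cell division were higher in dorsal skin. Of 32 cell cycle genes 17 were higher and 0 lower, with a median log2 difference of 0.27. Ccnb1, the cyclin that drives entry into mitosis, was at 30.1, 29 and 31.2 FPKM in ventral and 45.5, 45.1 and 48.8 FPKM in dorsal skin, a log2 difference of 0.61 (SE 0.07, adjusted p = 0.0024). Tyms, which makes thymidylate for DNA synthesis, was at 48.3, 48.6 and 45 FPKM in ventral and 75.9, 71.7 and 75.6 FPKM in dorsal skin (log2 difference 0.64, SE 0.07, adjusted p = 0.00168), and Birc5, survivin, had a log2 difference of 0.58 (SE 0.05). The proliferation marker Mki67 was at 6.82, 7.43 and 6.91 FPKM in ventral and 7.04, 6.87 and 7.2 FPKM in dorsal skin, with overlapping libraries. Among 22 regulators of the matrix and shaft, 3 were higher and 4 lower. Lef1, the nuclear partner of WNT signalling in the matrix, was higher in dorsal skin, at 37.7, 40.1 and 41.5 FPKM against 29.2, 35 and 32.7 FPKM in ventral skin (log2 difference 0.30, SE 0.07, adjusted p = 0.0362). Shh, a signal from the matrix, was at 3.44, 3.61 and 2.65 FPKM in ventral and 3.68, 2.91 and 3.41 FPKM in dorsal skin and did not pass (adjusted p = 0.883). With all 43 libraries in the fit, 3 cell cycle genes were higher, and neither Ccnb1 (adjusted p = 0.0963) nor Lef1 (adjusted p = 0.532) was.

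Pigment genes moved in the same direction as cell cycle genes, with 8 of 14 melanocyte genes higher in dorsal skin, 0 lower and a median log2 difference of 0.43. Tyrp1, an enzyme of melanin synthesis, was at 60.4, 62.9 and 60.2 FPKM in ventral and 78.4, 84.8 and 89.7 FPKM in dorsal skin, a log2 difference of 0.45 (SE 0.05, adjusted p = 0.00258). Dct, which acts in the same synthesis, was at 107, 106 and 105 FPKM in ventral and 153, 149 and 155 FPKM in dorsal skin (log2 difference 0.52, SE 0.05, adjusted p = 0.000757). Mlana rose from 163, 154 and 153 FPKM in ventral to 231, 219 and 226 FPKM in dorsal skin, and Pmel, which forms the fibrils of the pigment granule, from 113, 118 and 112 FPKM to 149, 141 and 140 FPKM. The summed level of the list was 521 to 538 FPKM in ventral and 715 to 736 FPKM in dorsal skin. In whole skin, fewer cells of a type and less RNA per cell cannot be told apart. With all 43 libraries in the fit 1 pigment gene was higher, and Tyrp1 (adjusted p = 0.331), Mlana (adjusted p = 0.283) and Pmel (adjusted p = 0.545) did not pass, whereas Dct did.

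**Figure D3:**
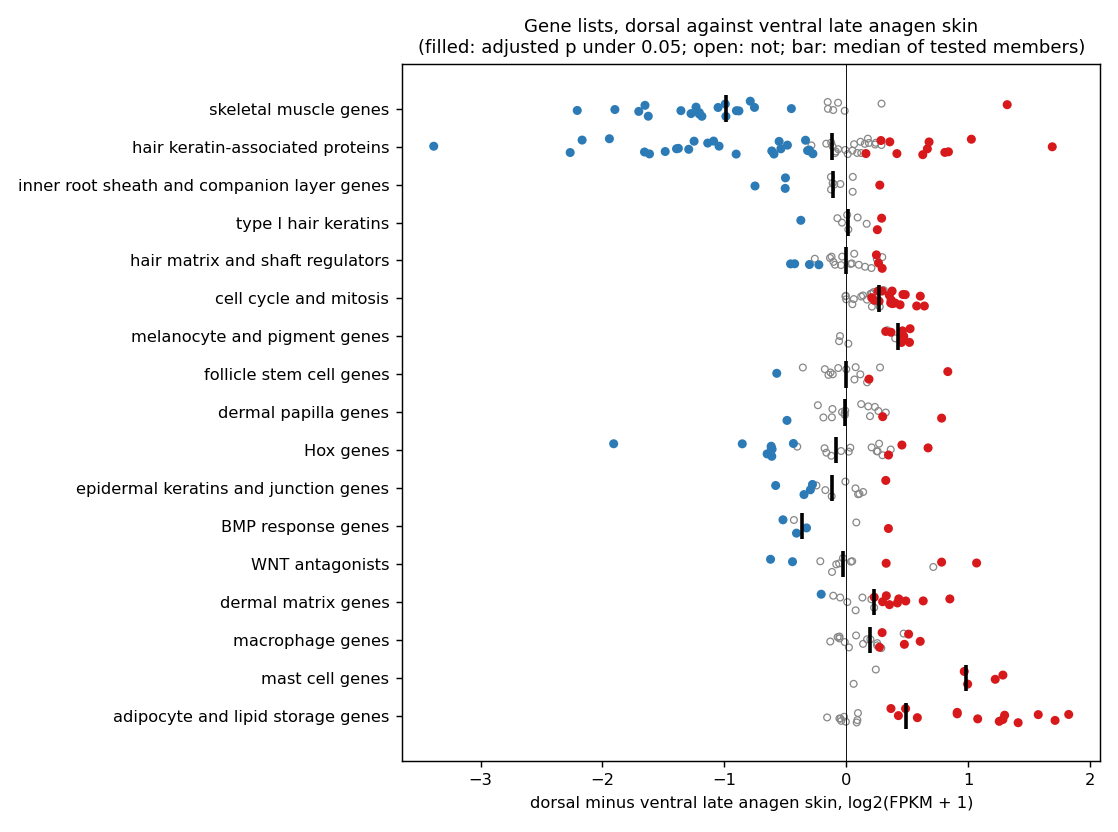
Log2(FPKM + 1) difference of dorsal minus ventral late anagen skin for the members of 17 gene lists, with filled points for adjusted p under 0.05, open points for the others and a bar at the median of each list. Skeletal muscle genes lie mostly to the left, with 19 of 26 lower in dorsal skin, and adipocyte genes to the right, with 14 of 23 higher.

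Adipocyte genes were higher in dorsal skin as a group. Of 23 genes tested 14 were higher and 0 lower, with a median log2 difference of 0.49. Cidec, a protein of lipid droplets, on chromosome 6 from 113424634 to 113435760, was at 8.58, 7.09 and 7.77 FPKM in ventral and 32.1, 29 and 29.5 FPKM in dorsal skin, a log2 difference of 1.83 (SE 0.07, adjusted p = 1.31e-05). Dorsal skin held 3.87 times the mean ventral level. Adipoq, the adipocyte hormone adiponectin, was at 27.9, 24.9 and 21.8 FPKM in ventral and 76.7, 74.5 and 76.1 FPKM in dorsal skin (log2 difference 1.58, SE 0.08, adjusted p = 4.27e-05). Retn, resistin, was at 13.4, 15.1 and 14.2 FPKM in ventral and 43.9, 36.9 and 38.1 FPKM in dorsal skin. Lpl, the lipase that releases fatty acids from lipoproteins, differed less, with a log2 difference of 0.58 (SE 0.06, adjusted p = 0.00114). Thrsp and Cfd had log2 differences of 1.72 and 1.26 (SE 0.12 and 0.07). Among genes outside the lists, Tusc5, a membrane protein of adipocytes, was at 1.49, 1.72 and 1.65 FPKM in ventral and 8.54, 8.08 and 7.56 FPKM in dorsal skin, and Car3, a carbonic anhydrase abundant in fat, at 108, 102 and 111 FPKM and 336, 314 and 333 FPKM. The groups did not overlap in any of these genes, as the rule for naming some of them required. The summed level of the list was 1866 to 1992 FPKM in ventral and 2315 to 2354 FPKM in dorsal skin. The count of 14 was the same without any 1 library and 11 with all 43 libraries in the fit.

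Mast cell genes were also higher in dorsal skin, 4 of 6 with 0 lower and a median log2 difference of 0.98. Tpsb2, a tryptase of mast cell granules, on chromosome 17 from 25366305 to 25369098, was at 3.99, 3.17 and 3.47 FPKM in ventral and 10.5, 8.83 and 10.9 FPKM in dorsal skin, a log2 difference of 1.29 (SE 0.10, adjusted p = 0.000283). The granule proteases Mcpt4 and Cma1 were at 9.29, 9.43 and 8.58 FPKM and 6.5, 7.54 and 7.76 FPKM in ventral skin and at 21.2, 24.8 and 21.9 FPKM and 13.2, 16.9 and 16.6 FPKM in dorsal skin. The count was again 4 with all 43 libraries in the fit. Of 19 macrophage genes 5 were higher, and C1qa, a subunit of complement C1q, was at 10.7, 9.29 and 12.8 FPKM in ventral and 18, 17 and 16.3 FPKM in dorsal skin (log2 difference 0.61, SE 0.12, adjusted p = 0.0179); none of the 5 passed with all 43 libraries in the fit. Of 9 lymphoid genes 0 passed limma's test in either direction, with 1 under 0.05 before adjustment. Red blood cell genes were higher for 3 of 6, with summed levels of 700 to 735 FPKM in ventral and 872 to 997 FPKM in dorsal skin. Dermal matrix genes were higher for 9 of 17 and lower for 1. In the fit of all 43 libraries, 2 dermal matrix genes were higher and no red blood cell gene was. Dpt, dermatopontin, which binds collagen fibres, was at 40.4, 35.5 and 36.8 FPKM in ventral and 70.8, 68 and 66.6 FPKM in dorsal skin (log2 difference 0.85, SE 0.06, adjusted p = 0.000203).

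Skeletal muscle genes were lower in dorsal skin. Of 26 tested 19 were lower and 1 higher, with a median log2 difference of -0.99, and their summed level was 1647 to 1692 FPKM in ventral and 686 to 717 FPKM in dorsal skin. Ttn, titin, the spring of the sarcomere, on chromosome 2 from 76703980 to 76982547, was at 24.9, 27.8 and 23.3 FPKM in ventral and 3.66, 5.49 and 5.09 FPKM in dorsal skin, a log2 difference of -2.21 (SE 0.13, adjusted p = 8.2e-05). Myh4, a fast myosin heavy chain, was at 25.4, 25.2 and 25.8 FPKM in ventral and 5.75, 5.94 and 6.65 FPKM in dorsal skin (log2 difference -1.90, SE 0.06, adjusted p = 6.84e-06). Ckm, muscle creatine kinase, was at 133, 143 and 150 FPKM and 50.3, 43 and 40.7 FPKM, and Acta1, skeletal actin, at 254, 247 and 262 FPKM and 134, 125 and 124 FPKM. Tnni2, fast troponin I, had a log2 difference of -1.70 (SE 0.08). The 1 exception was Tnnc1, troponin C of slow and cardiac muscle, at 0, 0.28 and 0.37 FPKM in ventral and 1.99, 2.76 and 1.44 FPKM in dorsal skin (log2 difference 1.32, SE 0.19, adjusted p = 0.00543). How much muscle of the trunk wall came with the dissected skin was not tested.

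Among the secreted signals of the cycle, 2 of 8 BMP ligands were lower in dorsal skin and 0 higher, with a median log2 difference of -0.12. Bmp2 was at 12, 12.3 and 12.8 FPKM in ventral and 8.94, 8.47 and 9.42 FPKM in dorsal skin, a log2 difference of -0.43 (SE 0.06, adjusted p = 0.00373). Gdf10, a BMP-like ligand, was at 8.85, 7.18 and 7.41 FPKM in ventral and 5.15, 5.57 and 5.75 FPKM in dorsal skin (log2 difference -0.44, SE 0.09, adjusted p = 0.0239). Bmp4 was at 33.6, 29.5 and 31.7 FPKM in ventral and 29.8, 30.5 and 27.5 FPKM in dorsal skin and did not pass (adjusted p = 0.334). Of 14 BMP antagonists 1 was higher and 2 lower. Fst, follistatin, was lower in dorsal skin, at 13.2, 13.7 and 14.8 FPKM against 22.1, 21 and 18.6 FPKM in ventral skin (adjusted p = 0.00556), whereas Fstl1 was higher, at 60.2, 56 and 61.6 FPKM against 45.8, 42.8 and 44.5 FPKM (adjusted p = 0.00245). Of 6 genes that respond to BMP, 3 were lower and 1 higher. Smad7, the inhibitory SMAD, fell by 0.52 on the log2 scale (SE 0.09, adjusted p = 0.0103), and Id2 was 0.35 higher (SE 0.04, adjusted p = 0.00333).

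Of 13 WNT ligands 2 were lower in dorsal skin and 0 higher. Wnt6 was at 5.88, 6.36 and 4.38 FPKM in ventral and 2.66, 3.42 and 3.38 FPKM in dorsal skin (log2 difference -0.65, SE 0.13, adjusted p = 0.0211), and Wnt5a at 25.2, 26.4 and 26.9 FPKM and 21.5, 22 and 23.3 FPKM (log2 difference -0.22, SE 0.05, adjusted p = 0.024). Of 13 WNT antagonists 3 were higher and 2 lower. Wif1, which binds WNT ligands and is made by the dermal papilla, was at 16.1, 16.8 and 19.4 FPKM in ventral and 31.3, 30.2 and 30.4 FPKM in dorsal skin, a log2 difference of 0.78 (SE 0.07, adjusted p = 0.000812). Sfrp2, a secreted Frizzled-related protein, was at 1.24, 1.04 and 1.2 FPKM in ventral and 2.88, 3.29 and 4.6 FPKM in dorsal skin (log2 difference 1.07, SE 0.13, adjusted p = 0.00321). On the other side, Dkk2 was at 3.29, 3.23 and 3.06 FPKM in ventral and 1.48, 1.89 and 1.83 FPKM in dorsal skin (adjusted p = 0.00393) and Notum, which removes the lipid of WNT ligands, at 6.87, 7.18 and 6.81 FPKM and 4.86, 5.79 and 4.06 FPKM (adjusted p = 0.0392). Of 27 signals tied to the timing of growth and catagen 2 were higher and 5 lower. Fgf5, which ends anagen, was at 5.24, 5.85 and 4.84 FPKM in ventral and 4.32, 5.54 and 4.8 FPKM in dorsal skin, with overlapping libraries (adjusted p = 0.59). Igf1, a growth factor of the dermis, was higher in dorsal skin, at 6.77, 6.48 and 6.18 FPKM against 2.8, 4.45 and 3.4 FPKM (adjusted p = 0.0305), and Tgfb1 and Tgfb2 were lower, with log2 differences of -0.52 and -0.50 (adjusted p = 0.0308 and 0.0278). Under the fit of all 43 libraries Gdf10, Fstl1, Id2, Wnt5a, Notum, Tgfb1 and Tgfb2 did not pass, and Bmp2, Fst, Smad7, Wnt6, Wif1, Sfrp2, Dkk2 and Igf1 did.

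**Figure D4:**
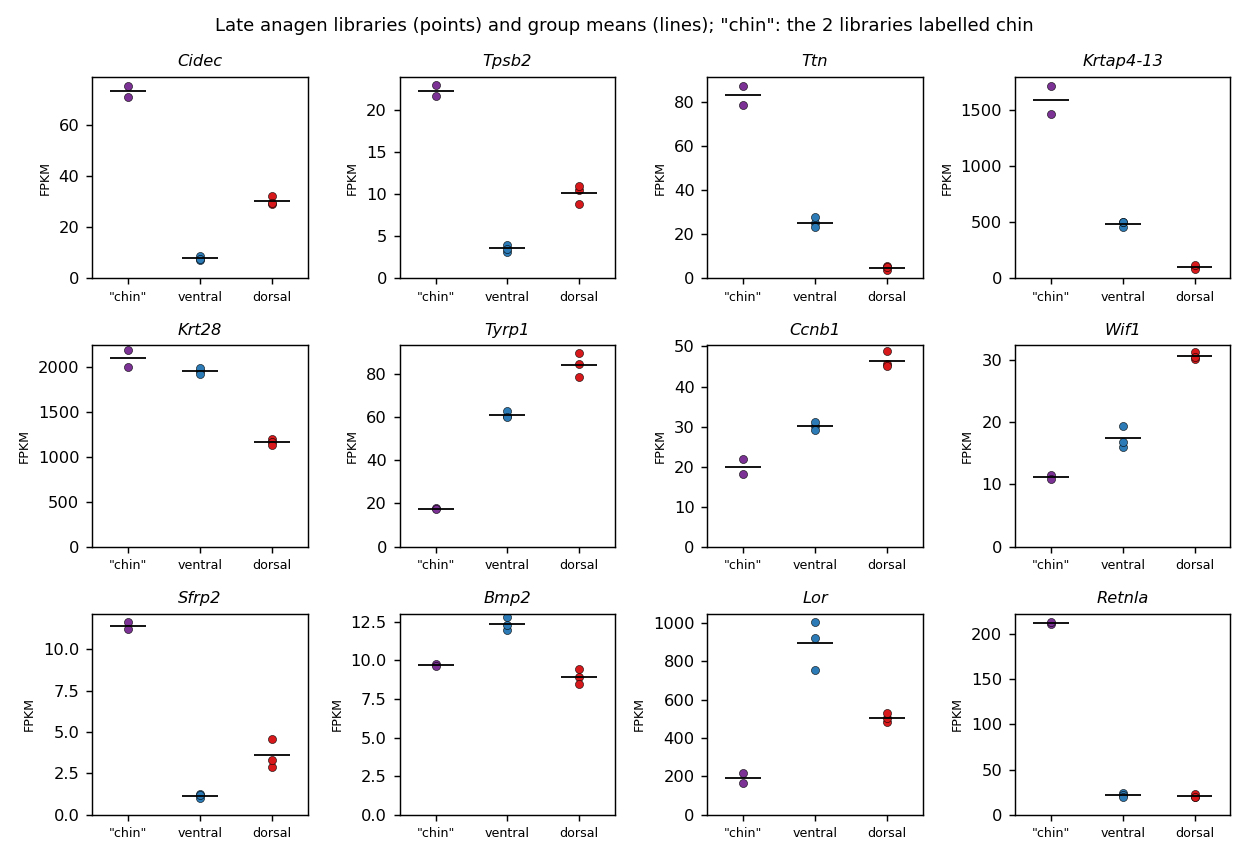
FPKM of 12 genes in each of the 8 late anagen libraries, with points for libraries and lines for group means, on linear axes that start at 0. Dorsal and ventral points do not overlap for any gene but Retnla, and many of these genes were named because they passed. The 2 libraries labelled chin lie farthest from the others for Cidec, Tpsb2, Ttn, Krtap4-13, Tyrp1, Sfrp2 and Retnla.

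Hox genes differed between the late anagen trunk domains. Of 24 tested 8 were lower and 3 higher in dorsal skin. Hoxa7 led them, at 13.8, 14.2 and 17.6 FPKM in ventral and 3.23, 3.82 and 2.88 FPKM in dorsal skin, a log2 difference of -1.91 (SE 0.11, adjusted p = 8.93e-05). Hoxb7 was at 11.7, 14.6 and 13.7 FPKM in ventral and 8.3, 6.79 and 5.83 FPKM in dorsal skin (log2 difference -0.85, SE 0.13, adjusted p = 0.0065), and Hoxa5 had a log2 difference of -0.61 (SE 0.08). Hoxb2, at 10.6, 10.5 and 10.7 FPKM in ventral and 13.6, 13.8 and 13.9 FPKM in dorsal skin, and Hoxd4, at 0.66, 0.6 and 0.33 FPKM and 1.17, 1.46 and 1.68 FPKM, were higher in dorsal skin (adjusted p = 0.00673 and 0.0302). Under the replicate block the call for Hoxd4 was lost (adjusted p = 0.0779), and 6 Hox genes were lower and 1 higher. The late anagen order of the domains did not hold at mid-anagen, where Hoxa7 was at 13.9 ± 12.7 FPKM (SD, n = 2) in ventral skin compared to 23.8 ± 1.81 FPKM (SD, n = 3) in dorsal skin, Hoxb7 at 7.58 ± 3.45 FPKM (SD, n = 2) compared to 17 ± 1.01 FPKM (SD, n = 3) and Hoxa5 at 1.32 ± 1.07 FPKM (SD, n = 2) compared to 5.85 ± 0.19 FPKM (SD, n = 3). The signed difference changed between the stages for all 3 (adjusted p = 0.00354, 0.000573 and 0.000291). Over all stages other than late anagen, Hoxa7 ranged from 3.42 to 39.28 FPKM in dorsal and from 3.1 to 42.29 FPKM in ventral libraries. Its level thus varied as widely within each domain as between them. Of 18 other positional transcription factors 1 was higher and 2 lower, among them the limb and trunk gene Tbx3, with a log2 difference of -0.46 at levels below 1 FPKM. Tbx15, a gene of dorsal dermis, was at 1.41, 1.93 and 2.55 FPKM in ventral and 1.65, 1.59 and 1.89 FPKM in dorsal skin, with overlapping libraries (adjusted p = 0.652). With all 43 libraries in the fit 5 Hox genes were lower and 2 higher, and Hoxa5 (adjusted p = 0.0946), Hoxb2 (adjusted p = 0.627) and Tbx3 (adjusted p = 0.117) did not pass.

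Some genes of the surface epidermis were lower in dorsal skin. Of 13 epidermal keratins and junction genes 4 were lower and 1 higher in dorsal skin, and of 21 cornified envelope genes 4 were lower and 2 higher. Lor, loricrin, the main protein of the cornified envelope, was at 1008, 921 and 756 FPKM in ventral and 483, 504 and 533 FPKM in dorsal skin (log2 difference -0.81, SE 0.13, adjusted p = 0.00834). Krt5 of the basal layer was at 1288, 1259 and 1264 FPKM in ventral and 1039, 999 and 962 FPKM in dorsal skin, and Krt1 of the layers above at 57.8, 64.9 and 57.5 FPKM and 73.5, 76.5 and 76.4 FPKM, so the 2 moved in opposite directions (adjusted p = 0.00662 and 0.0211). Krt10, the partner of Krt1, did not pass (log2 difference -0.01, adjusted p = 0.958). Of 16 immediate early genes, which respond within minutes to stimuli and to handling of tissue, 5 were lower and 1 higher, and Fos was at 79, 86.4 and 85.3 FPKM in ventral and 69.9, 65.6 and 66.5 FPKM in dorsal skin. Of 14 circadian clock genes 0 passed limma's test in either direction, with 1 under 0.05 before adjustment. Fitted with all 43 libraries, no epidermal keratin or junction gene and 1 immediate early gene was lower, and Lor, Krt1, Krt5 and Fos did not pass.

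The genes with the largest differences by a fixed rule added further groups. Serpinb6d, a serine protease inhibitor, was at 7.52, 7.13 and 7.9 FPKM in dorsal skin, 0.65, 0.23 and 0.81 FPKM in ventral skin and 0.36 and 0.2 FPKM in the libraries labelled chin, and led the genes that were higher in dorsal skin than in both other groups. Also higher there were Selenbp1, a selenium-binding protein, at 118, 115 and 112 FPKM against 39.9, 37.7 and 37.2 FPKM in ventral skin, and Gnmt, glycine N-methyltransferase, at 119, 104 and 110 FPKM against 42.5, 41.1 and 51.2 FPKM. Lyg2, Spink6, Stfa2 and Prelid2 completed the 8 with Krtap19-1, with log2 differences from ventral skin of 1.37, 1.07, 0.93 and 1.00. Lower in dorsal skin than in both others was Amtn, amelotin, at 0.72, 1.41 and 0.76 FPKM against 16.6, 15.9 and 18.9 FPKM in ventral skin and 53.7 and 62.3 FPKM in the libraries labelled chin. The muscle genes Ttn, Sln and Apobec2, the protease inhibitor gene Spink12 and 3 Krtap genes made up the rest. Sln, which regulates the calcium pump of muscle, was at 18.7, 12.1 and 13 FPKM in ventral and 2.8, 2.29 and 1.97 FPKM in dorsal skin, and Spink12 at 17.9, 21.9 and 19 FPKM and 4.41, 4.31 and 3.88 FPKM. Xlr3b, of a family of near copies on the X chromosome, had a log2 difference of -2.27 (SE 0.14).

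Higher in ventral skin than in both others was Pawr, at 37.8, 38.9 and 46.7 FPKM against 15, 19.3 and 17.9 FPKM in dorsal skin and 17.4 and 14.6 FPKM in the libraries labelled chin, as was Pglyrp4, which binds bacterial cell walls, at 16.8, 14.3 and 15.6 FPKM against 6.68, 6.66 and 6.92 FPKM and 4.99 and 5.33 FPKM. Ogfrl1 was at 13.6, 18.2 and 13 FPKM in ventral skin, with a spread in dorsal skin from 2.42 to 8.94 FPKM, and its call was lost in the fit of all 43 (adjusted p = 0.0507). Ier5 and the histone genes Hist1h1e and Hist1h2ae, whose copies resemble each other, had log2 differences of dorsal from ventral skin of -0.78, -2.25 and -1.07, and Hoxa7 and Lor completed the list. A further histone gene, Hist1h2an, was at 12.1, 10.3 and 8.19 FPKM in ventral and 0, 0 and 1.56 FPKM in dorsal skin. Lower in ventral skin than in both others were the major urinary protein genes Mup11, Mup18 and Mup10, the fat genes Cidec, Tusc5 and Thrsp, the retinol carrier Rbp4 and haptoglobin, Hp. Mup18 was at 18.7, 18.8 and 17.8 FPKM in ventral skin, 70.3, 68.7 and 63.7 FPKM in dorsal skin and 367 and 398 FPKM in the libraries labelled chin. Hp was at 53.4, 47.7 and 48 FPKM, 159, 147 and 155 FPKM and 274 and 270 FPKM. Mup genes are near copies of each other, and fragments may have been split among them. The Mup11 call between dorsal and ventral skin was lost in the fit of all 43 (adjusted p = 0.0553).

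The 2 libraries labelled chin stood far from both trunk domains, at log2 distances of 0.587 to 0.642, compared to 0.506 to 0.534 between ventral and dorsal libraries. They held more muscle, fat, macrophage and blood RNA. Of 26 skeletal muscle genes ventral skin was lower for 23 and dorsal skin for 22, with 1 higher. The summed level of the list was 8006 to 8194 FPKM in the libraries labelled chin. Tcap, a sarcomere protein, was at 320 and 256 FPKM there, 42.9, 43.8 and 46.7 FPKM in ventral and 17.1, 16.4 and 16.6 FPKM in dorsal skin. Mybpc2 and Casq1, of fast muscle, were at 28.9 and 29.2 FPKM and 104 and 105 FPKM, against at most 4.37 and 17.95 FPKM in the trunk libraries, and Pvalb at 386 and 345 FPKM against at most 73.6 FPKM. Of 19 macrophage genes ventral skin was lower for 17 and dorsal skin for 18, with 0 higher, and the summed level was 603 to 628 FPKM in the libraries labelled chin against 168 to 188 FPKM in ventral and 217 to 220 FPKM in dorsal skin.

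Retnla, a product of alternatively activated macrophages and of fat, on chromosome 16 from 48842551 to 48844461, was at 211 and 212 FPKM in the libraries labelled chin, 24.2, 22.1 and 19.9 FPKM in ventral and 19.3, 22.6 and 20.2 FPKM in dorsal skin. The log2 difference was -3.21 (SE 0.09) for ventral skin and -3.30 (SE 0.09) for dorsal skin, and the trunk domains overlapped. Gpx3, a secreted glutathione peroxidase, was at 199 and 190 FPKM in the libraries labelled chin against at most 29.44 FPKM in any trunk library, and Inmt, an N-methyltransferase, at 7.34 and 6.33 FPKM against at most 0.21 FPKM. Mup14 was at 28.8 and 40.8 FPKM there and ranged from 0 to 7.73 FPKM in the trunk libraries. For ventral skin Mup11 and Mup10 had log2 differences of -5.02 (SE 0.63) and -4.21 (SE 0.10). Adipocyte genes were lower for 19 of 23 in ventral and 17 of 23 in dorsal skin, and red blood cell genes for 5 and 6 of 6. Hair keratin-associated proteins were lower for 47 and 42 of 56.

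On the other side, the libraries labelled chin were low in pigment, cell cycle and epidermal genes. Of 14 melanocyte genes ventral skin was higher for 11 and lower for 1, and dorsal skin was higher for 11 and lower for 0. Tyrp1 was at 17.7 and 17.4 FPKM in the libraries labelled chin, and the mean was 3.48 times higher in ventral and 4.8 times higher in dorsal skin. Cell cycle genes were higher for 20 of 32 in ventral and 28 of 32 in dorsal skin, with 0 lower in either. Of 13 epidermal keratins and junction genes ventral skin was higher for 10, and dorsal skin was higher for 7 and lower for 1. Krt10 was at 139 and 141 FPKM in the libraries labelled chin, 406, 428 and 391 FPKM in ventral and 385, 405 and 430 FPKM in dorsal skin. Late cornified envelope gene Lce3d was at 11.7 and 11.8 FPKM there against 48.5, 58.8 and 51.2 FPKM and 49, 49.4 and 44.7 FPKM, and Lor at 220 and 167 FPKM against 1008, 921 and 756 FPKM and 483, 504 and 533 FPKM. Serpinb7, Serpina3b, Serpina3h, Gdpd2 and Skint9 were the other genes of largest difference that were lower than in both trunk domains, with log2 differences between 1.52 and 1.96 for ventral and between 1.60 and 1.94 for dorsal skin. Of 16 immediate early genes 13 were higher in each trunk domain, with 1 lower in dorsal skin.

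Several lists depended on the scaling in these comparisons. Scaling by the median of ratios moved the median log2 difference of all genes from 0.12 to -0.01 for dorsal skin and from 0.10 to 0.00 for ventral skin against the libraries labelled chin. Cell cycle genes higher than in the libraries labelled chin then numbered 14 in ventral and 26 in dorsal skin, and follicle stem cell genes 5 in each, compared to 10 and 9 as deposited. Krt15, a stem cell keratin, was at 638 and 639 FPKM in the libraries labelled chin, 1156, 1167 and 1235 FPKM in ventral and 1291, 1269 and 1295 FPKM in dorsal skin. Counts for muscle, macrophage, melanocyte and red blood cell genes moved by at most 1 under TPM, median of ratios or quantile scaling.

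Compared to mid-anagen, the stage before, the difference between dorsal and ventral skin changed for many genes. In 15 libraries of both stages, with 2 chin, 2 ventral and 3 dorsal at mid-anagen, the dorsal minus ventral difference, counted with its sign, was higher at late than at mid-anagen for 1786 of 18264 genes (9.78%) and lower for 1894 (10.4%). The same contrast passed in either direction for 3979 genes (21.8%) for ventral skin and 2485 (13.6%) for dorsal skin against chin, where the late libraries are those labelled chin. Adipocyte genes changed upward. In ventral mid-anagen skin Cidec was at 69.4 ± 25.4 FPKM (SD, n = 2), and dorsal mid-anagen skin held 14.6 ± 2.32 FPKM (SD, n = 3), so the dorsal mean was the lower at mid-anagen and the higher at late anagen (change of the log2 difference 3.97, adjusted p = 6.01e-05). This change of the signed difference was upward for 18 of 23 adipocyte genes and downward for 2. Of 18 dermal matrix genes 18 changed upward, of 19 macrophage genes 14 and of 7 mast cell genes 6, with 0 downward in each. At mid-anagen Dpt was at 189 ± 11.9 FPKM (SD, n = 2) in ventral skin compared to 33.3 ± 1.93 FPKM (SD, n = 3) in dorsal skin, and Tpsb2 at 34.3 ± 2.64 FPKM (SD, n = 2) compared to 2.76 ± 0.89 FPKM (SD, n = 3).

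Muscle genes changed in the opposite sense. At mid-anagen Ttn was at 7.8 ± 1.63 FPKM (SD, n = 2) in ventral skin compared to 16.5 ± 2.12 FPKM (SD, n = 3) in dorsal skin, and the difference changed by -3.20 (adjusted p = 1.96e-05), and 17 of 27 muscle genes changed downward and 2 upward. Of 14 pigment genes 11 changed downward and 1 upward. Mid-anagen levels of Tyrp1 were 33.7 ± 11.5 FPKM (SD, n = 2) in ventral skin compared to 124 ± 17.2 FPKM (SD, n = 3) in dorsal skin, so that the dorsal mean was the higher at both stages. Of 56 keratin-associated protein genes 43 changed upward and 2 downward, and mid-anagen levels of Krtap4-9 were 1938 ± 178 FPKM (SD, n = 2) in ventral skin compared to 95 ± 13.4 FPKM (SD, n = 3) in dorsal skin. Krtap20-2 was 1 of the 2 that changed downward (change -2.36, adjusted p = 1.64e-05). Cell cycle genes changed upward for 3 of 32 and downward for 0.

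**Figure D5:**
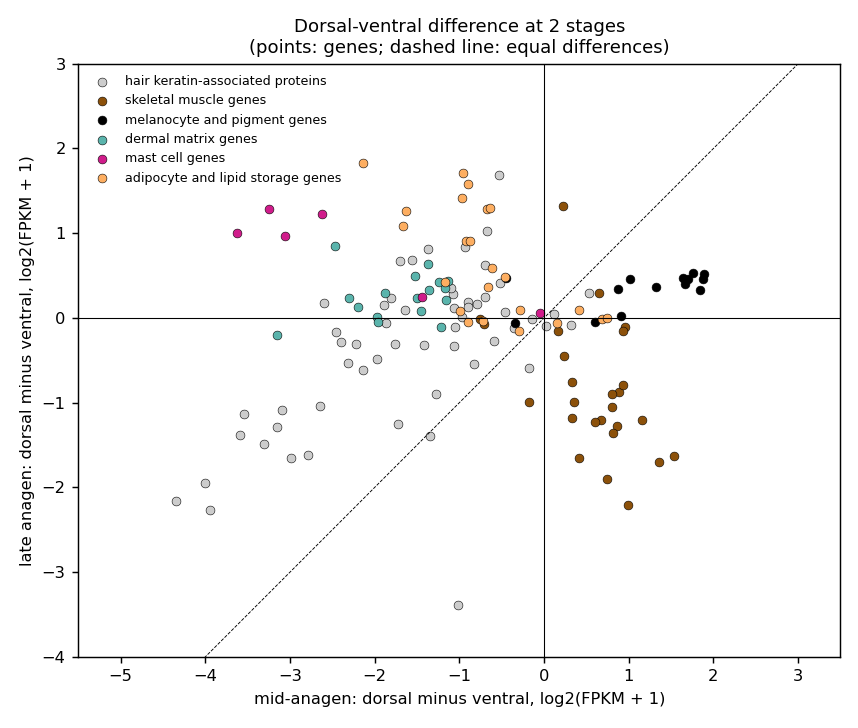
Dorsal minus ventral difference in log2(FPKM + 1) at late anagen against that at mid-anagen, with a point for each gene of 6 lists and a dashed line of equal differences. Muscle genes lie mostly at the lower right, mast cell and most adipocyte genes at the upper left, and pigment genes at the right, below the line.

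The ventral mid-anagen libraries differed from each other, with Hoxa7 at 4.9 and 22.9 FPKM, so each was left out in turn after the data had been seen. The genes that changed upward and downward then numbered 1324 and 1359 without the first and 1348 and 1479 without the second. Adipocyte genes changed upward for 16 and 18, dermal matrix genes for 17 of 17 without the first, and muscle genes downward for 14 and 20. Macrophage genes changed upward for 8 and 12, and melanocyte genes downward for 8 and 11.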

How the data were processed

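RNA from whole microdissected skin of C57BL/6 mice, with an RNA integrity number above 8 per the labels, was made into SMART-seq2 libraries and sequenced as paired ends. The authors deposited FPKM values, made with RSEM 1.2.25 on mm10 with GENCODE vM8 genes, after a batch effect correction whose batches are not named in the sources used here; its part in the values was not tested. For the tests, limma 3.58.1 in R 4.3.3 was used on log2(FPKM + 1), with variance trend and Benjamini-Hochberg adjustment at 0.05, for genes at 0.5 FPKM or more in 2 or more libraries. The fit held the 8 late anagen libraries (5 residual degrees of freedom), and the change from mid-anagen was tested as an interaction over 15 libraries. The procedure was tested on simulated data. Groups came from the labels, and replicate numbers were not used as pairs.

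The domains and gene lists were chosen with earlier results of these data known. Named genes were, for each domain, the 8 higher and 8 lower than in both others by the smaller log2 difference, and for each pair the 5 largest in each direction, with libraries that did not overlap, a mean of at least 5 FPKM and no clone, gene model or small RNA names. Members of the lists that passed with large differences or that define a list were added, and other genes were picked with their values in view. FPKM steps of genes with 1 transcript gave the depth, and there 79.0 to 81.6% of low values came within 0.2 of whole fragments (40% by chance). Without counts, no count test was run. Positions are from GENCODE vM21 (GRCm38), and 50 hair keratin-associated protein genes were matched by symbol to RefSeq promoters. Alternatives changed the pseudocount (0.1), the filter (none or 5 FPKM), the scaling (TPM, median of ratios, quantile), the variance trend, the replicate block and the libraries in the fit. The fits of the ventral and dorsal libraries alone, without single ventral mid-anagen libraries and without 1 ventral catagen library were added once the data had been examined.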

Additional observations from a re-analysis of the deposited data

Results flagged for a closer look

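The dorsal minus ventral difference was tested for a change between mid- and late anagen in the interaction term of the limma fit, and 76 of the 138 genes examined singly passed at an adjusted p under 0.05. Over all 18264 genes tested, 9.78% changed upward and 10.4% downward. Many of the 138 were named for large late anagen differences, which enter this test, so their share is not to be read as a result. The values are changes of the log2(FPKM + 1) difference, late minus mid-anagen. The 2 ventral mid-anagen libraries differed from each other, and the part of that in the changes is given only through the counts without either of them.

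Adipocyte genes changed upward, Cidec by 3.97, Adipoq by 2.48, Thrsp by 2.68, Retn by 2.38, Cfd by 2.89 and Lpl by 1.2, as did the fat and plasma protein genes Tusc5 by 4.04, Car3 by 2.56, Rbp4 by 2.62, Hp by 2.32 and Retnla by 1.28, and the sebaceous gene Far2 by 1.8. Mast cell proteases changed upward as well, Tpsb2 by 4.54, Mcpt4 by 3.85 and Cma1 by 4.62, with C1qa and C1qb of macrophages at 1.59 and 1.98, Dpt and Postn of the dermis at 3.32 and 1.36 and the globin genes Hba-a1 and Hbb-bs at 2.12 and 2.06. Of muscle genes, Ttn changed by -3.2, Myh4 by -2.64, Ckm by -2.07, Tnni2 by -3.06, Apobec2 by -2.87, Pvalb by -3.15, Tcap by -2.44, Tnnc2 by -1.88, Mybpc2 by -1.72 and Casq1 by -1.7, while Tnnc1 changed by 1.1.

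In the hair shaft, Krtap4-13 changed by 1.69, Krtap4-9 by 2.18, Krtap4-8 by 2.06, Krtap1-4 by 1.34, Krtap19-1 by 1.7, Krtap19-4 by 1.78, Krtap5-3 by 2.22, Krt39 by 1.06 and Krt34 by 0.72, and Krtap20-2 by -2.36. The root sheath genes Krt28, Tchh and Krt6a changed by -0.8, -1.01 and -1.2, Krt5 and Col17a1 of basal keratinocytes by -1.0 and -0.57, and Lce3d of the cornified envelope by -2.72. For the pigment genes Tyrp1, Dct, Mlana, Pmel and Oca2 the changes were -1.42, -1.36, -1.23, -1.52 and -1.26.

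Among positional genes Hoxa7 changed by -2.97, Hoxb7 by -1.98, Hoxa5 by -2.25, Hoxb6 by -1.58, Tbx3 by 1.63 and Tbx15 by 0.79. Among signals, Sfrp2 changed by 2.17, Sfrp4 by 1.53, Dkk2 by 1.18, Fstl1 by 2.07, Igf1 by 1.63, Wnt5a by -0.55 and Smad7 by -0.52. The remaining values were 2.37 for Serpinb6d, 1.42 for Lyg2, -2.47 for Spink12, -2.08 for Pglyrp4, -3.44 for Xlr3b, -2.31 for Fos, 0.59 for Serpina3b and -1.9 for Mup16, and -0.85 and 1.4 for the clock genes Nr1d1 and Per3.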

How the results depend on the processing

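With all 43 libraries in the fit, the genes that differed among the domains numbered 4432, those that set the libraries labelled chin, ventral and dorsal skin apart 2300, 167 and 396, and those that differed in ventral and dorsal skin against the libraries labelled chin and in dorsal against ventral skin 3319, 4144 and 667. With 42, leaving out the ventral catagen library that 1 label places in the ear, an alternative chosen after the data were seen, these counts were 4410, 2272, 187, 383, 3296, 4113 and 673. Deviations from group means correlated at r = -0.045 to 0.117 in 7 pairs of equal replicate number and at -0.085 to 0.053 in 14 others. With 2 or 3 libraries per group these deviations are tied to each other, so they cannot show whether replicate numbers pair libraries. A replicate block gave 492 genes that set ventral skin apart and 1497 for dorsal against ventral skin. Without any 1 library the counts ranged from 5110 to 6527 among the domains, from 2689 to 3946, 414 to 710 and 716 to 1185 for the libraries labelled chin, ventral and dorsal skin set apart, from 3576 to 5334 and 4461 to 6236 for ventral and dorsal skin against the libraries labelled chin, from 1187 to 2256 for dorsal against ventral skin, and from 2771 to 3602, 1227 to 2195 and 2683 to 3393 for the 3 changes from mid-anagen. Those that moved a count by over 1.5 times were, for dorsal against ventral skin, ventral replicates 1 (1490) and 2 (1369) and dorsal replicates 1 (1229), 2 (1279) and 3 (1187). For ventral skin set apart they were ventral 2 (449) and dorsal 1 (424), 2 (414) and 3 (446), for dorsal skin set apart ventral 2 (861) and dorsal 1 (749), 2 (830) and 3 (716), and for the libraries labelled chin their replicate 2 (2689 set apart, 3576 against ventral skin). The change against dorsal skin moved without either library labelled chin (1557 and 1227) and without dorsal 3 (1613). Of the named genes, 83 of 85 were called in ventral and 80 of 84 in dorsal skin against the libraries labelled chin, 73 and 75 of them under every alternative. In dorsal against ventral skin 95 of 102 were called, 61 under every alternative, with 29 lost with all 43 libraries, 9 under the block and 0 reversed. Many of these genes were named because they passed, so the shares called reflect that choice. Of genes not called between dorsal and ventral skin, Krt10 turned to 0.013 with TPM, 0.028 with quantile scaling, 0.029 without ventral replicate 2 and 0.032 without dorsal replicate 1 (lowest -0.046), Shh to -0.066 without ventral replicate 3 and -0.02 without dorsal replicate 1 (highest 0.109), Tbx15 to 0.027 without ventral replicate 3 (lowest -0.253), and Mki67 from -0.002 to 0.014 with TPM, 0.031 without ventral replicate 2 and 0.013 without dorsal replicate 2 (lowest -0.023, without ventral replicate 1), and Hoxb6 in dorsal skin against the libraries labelled chin from 0.121 to -0.022 with median of ratios and -0.005 with quantile scaling. The cause of these moves was not tested. Pairs of libraries limit the precision for the libraries labelled chin, and without counts no count model was run.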
